A study of Mus musculus with 4 samples.

Results

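The newly postmitotic granule neurons described here are 1539 cells out of 62925 barcodes, of which 18313 passed a filter on depth, mitochondrial content and non-neural markers. They come from droplet single-cell RNA sequencing of mouse cerebellar subdural meninges, in which each count is 1 unique molecular identifier (UMI), a tag that marks 1 captured transcript near its 3' end. The filter asked for at least 1000 genes, at least 2000 UMIs, at most 10% of UMIs from mitochondrial genes, no UMI of the leukocyte gene Ptprc and at most 2 of the fibroblast collagen gene Col1a2. A cell was then taken as newly postmitotic with at least 3 UMIs of Neurod1, at least 1 of Cntn2, none of Grin2b, and at most 1 of Mki67, Top2a and Cenpf summed. NdpKO replicates 1 and 2 held 128 and 551 such cells, and NdpWT replicates 1 and 2 held 400 and 460. The cells were chosen by the measured UMIs of these genes, so their values are description only and were not tested.

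The groups were NdpKO; Neurod2-SmoA1+/- and NdpWT; Neurod2-SmoA1+/- mice on a C57/BL6 background. NdpKO mice lacked Ndp, the gene of the secreted Wnt-receptor ligand norrin, and NdpWT mice did not. The transgene places an activated Smoothened, the transducer of Hedgehog signals, under the Neurod2 promoter, which is active in granule lineage cells. It was present in NdpKO and NdpWT mice alike, so none of the cells stands for a lineage with unaltered Hedgehog signalling. Each library pooled 5 cerebella collected from 3 mixed litters, and the runs of the 2 genotypes were matched by litter. The series' design text gives ages of 6 to 8 days after birth and the protocol 7 to 9 days. The label of the tissue is subdural meninges, not cerebellar cortex, so the granule cells measured are those that came away with the peeled membrane. The labels do not say which NdpKO library was matched to which NdpWT library. The p-values of comparisons between genotypes measure the spread between 2 pooled libraries of each genotype. Those of comparisons between cell states measure how the difference within a library varies over the libraries of both genotypes.

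Granule neurons are the small glutamatergic neurons of the cerebellum. Their progenitors divide after birth in the external granule layer, directly under the pia, driven by Sonic hedgehog from Purkinje cells. When a progenitor leaves the cell cycle it switches off Atoh1, switches on the transcription factor Neurod1 and the adhesion molecule Cntn2 (TAG-1), lays out parallel fibre axons in the inner part of the layer, and only afterwards migrates inward along radial glia, where NMDA receptor subunits such as Grin2b come on. The cells chosen here sit between 2 neighbouring states from the same libraries. Non-cycling progenitors (247 cells) had Atoh1 and Barhl1, no Cntn2 and at most 2 UMIs of Neurod1. Grin2b-positive neurons (3029 cells) had at least 3 UMIs of Neurod1 and at least 1 of Grin2b. The cycle limit was the same for all 3 states. NdpKO replicate 1 held 19 progenitors, the fewest of any library, and NdpKO replicate 2 and NdpWT replicates 1 and 2 held 46, 60 and 122.

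The promoters of 3 transcription factor genes that act after or beside Neurod1, and of the neuronal tubulin gene Tubb3, are shown because their transcripts set these cells apart from progenitors below. The sequences come from the 250 bases before the transcription start in RefSeq (GRCm38.p6), 5′ to 3′ on the strand of the gene, without bases that GENCODE places inside the gene, and capitals mark the E-box CAGATG, searched on both strands (CATCTG on the other). They lie at chr1:172057597-172057846 (minus strand) for Nhlh1, chr3:102009895-102010075 (plus strand) for Nhlh2, chr11:98329649-98329895 (minus strand) for Neurod2 and chr8:123411303-123411423 (plus strand) for Tubb3.
Nhlh1: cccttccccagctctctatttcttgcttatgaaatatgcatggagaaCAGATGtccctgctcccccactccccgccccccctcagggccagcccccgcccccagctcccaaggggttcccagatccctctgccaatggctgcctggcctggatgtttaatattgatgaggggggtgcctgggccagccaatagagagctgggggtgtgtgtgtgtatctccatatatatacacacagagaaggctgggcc
Nhlh2: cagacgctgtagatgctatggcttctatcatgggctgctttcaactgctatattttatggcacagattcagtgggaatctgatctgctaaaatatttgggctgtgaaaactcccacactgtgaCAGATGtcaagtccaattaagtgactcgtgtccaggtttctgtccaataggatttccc
Neurod2: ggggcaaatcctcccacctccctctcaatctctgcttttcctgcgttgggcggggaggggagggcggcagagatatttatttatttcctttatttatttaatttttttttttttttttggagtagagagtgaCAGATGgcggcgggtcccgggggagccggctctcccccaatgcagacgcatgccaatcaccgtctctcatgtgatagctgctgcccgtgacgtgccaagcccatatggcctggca
Tubb3: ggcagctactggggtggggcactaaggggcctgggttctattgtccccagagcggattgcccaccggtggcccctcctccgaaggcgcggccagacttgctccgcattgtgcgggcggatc
Nhlh1, Nhlh2 and Neurod2 hold the motif 1 time each, and Tubb3 does not hold it in this window. The windows are 250, 181, 247 and 121 bases long, in the order printed. A further E-box, CAGCTG, was also searched for, and the full 250-base windows of these genes do not hold it. Over full 250-base windows of 27025 mouse promoters, CAGATG is present in 14.5%, CAGCTG in 12.8% and either of them in 25.3%. CAGATG is present in 23.1% of the promoters of a list of granule lineage transcription factors (6 of the 26 with an entry, of 34 listed). A match is a run of letters and not a shown binding site.

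The 4 libraries differed before any gene was compared. NdpKO replicate 1 stood apart, with 17.4% of its barcodes past the filter against 31.1 to 33.3% in the other libraries, and with 21.8% of barcodes over the mitochondrial limit against 7.58 to 10.4%. The summed UMIs of the newly postmitotic cells were 1442721 and 4266007 in NdpKO and 3520821 and 3362763 in NdpWT libraries, with a median per cell of 11585.5 and 7562 in NdpKO and 8843.5 and 7151 in NdpWT. Pairs of libraries shared 48 to 98 barcodes, but no barcode of a newly postmitotic cell. Haemoglobin transcripts made up 2.52 and 1.46% of the summed UMIs in NdpKO and 1.75 and 4.18% in NdpWT. Hbb-bs had a UMI in 96.9 to 100% of the cells and in 97.9 to 99.8% of fibroblast barcodes (at least 10 UMIs of Col1a2). Levels below are UMIs per 1000000 (CPM) of a library's summed cells. Those given with a test are scaled by the TMM factors of that comparison, so the same cells have slightly different values in each comparison. Sums over lists, values at the limits of the rule and the plots by state are not scaled.

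The cells carried the markers expected of their label that the rule had not used. Nhlh1, a basic helix-loop-helix factor of newborn neurons, had a UMI in 73.4 and 71.3% of the cells in NdpKO and in 73.3 and 69.3% in NdpWT. Nhlh2, its paralogue, had one in 78.1 and 75.7% of NdpKO cells and in 83.0 and 75.2% of NdpWT cells. Tubb3 was found in 89.8 and 92.6% of NdpKO cells and in 94.5 and 91.5% of NdpWT cells. Fibroblast barcodes, which should lack all 3 and were read to a median of 13247 to 30532 UMIs, had a UMI of Nhlh1 in 5.32 to 7.61%, of Nhlh2 in 7.66 to 12.3% and of Tubb3 in 12.5 to 22.4%. Grin2b-positive neurons held the 3 markers too, at 219 to 284 CPM of Nhlh1, 321 to 458 of Nhlh2 and 1015 to 1190 of Tubb3. The newly postmitotic cells had 231 to 250, 279 to 370 and 629 to 1006 CPM, in the same order. The 3 markers were thus not particular to the newly postmitotic state. Gabra6, a receptor subunit of mature granule neurons, was at most 0.301 CPM in the newly postmitotic cells of any library.

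The chosen genes themselves were graded. The median Neurod1 count per cell was 13.5 and 15 UMIs in NdpKO and 19 and 10 in NdpWT, above the lower limit of 3. Cntn2 stood close to its limit, with a median of 2 and 3 UMIs in NdpKO and 2 and 2.5 in NdpWT. At the Cntn2 limit, 47 and 124 cells of NdpKO and 154 and 127 of NdpWT lay just inside with 1 UMI, while 141 and 270 of NdpKO and 354 and 322 of NdpWT met every other criterion with none. Those with 1 UMI had 326 and 521 CPM of Tubb3 in NdpKO and 785 and 383 in NdpWT, and those with none had 200 and 265 in NdpKO and 453 and 197 in NdpWT. At the Grin2b limit, 61 and 251 cells of NdpKO and 244 and 162 of NdpWT lay just outside with 1 UMI. Their Tubb3 was 1043 and 1218 CPM in NdpKO and 1295 and 1068 in NdpWT, against 629 and 906 in NdpKO and 1006 and 729 in NdpWT for the chosen cells. Tubb3 thus changed by degrees across both limits, and a cell without a Grin2b UMI may still hold the transcript. Median depth was 11585.5 and 7562 UMIs in NdpKO and 8843.5 and 7151 in NdpWT for the chosen cells and 11496 and 7514.5 in NdpKO and 8863 and 6304 in NdpWT for Grin2b-positive neurons.

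Transcripts listed as markers of other cells were also present. Summed over each marker list, fibroblast genes gave 508 and 612 CPM in NdpKO and 364 and 678 in NdpWT, endothelial genes 208 and 82.3 in NdpKO and 29.5 and 238 in NdpWT, and macrophage genes 93.6 and 136 in NdpKO and 116 and 108 in NdpWT. The GABAergic interneuron list summed to 587 and 585 CPM in NdpKO and 563 and 573 in NdpWT. Most of that was Lhx1, with 544 and 2402 UMIs in NdpKO and 1831 and 1908 in NdpWT. The interneuron factor Pax2 had 79 and 18 UMIs in NdpKO and 35 and 7 in NdpWT, Gad1 had 34 and 18 in NdpKO and 18 and 0 in NdpWT, and Npy was at 0 in all 4 libraries. Eomes, a marker of unipolar brush cells, had a UMI in 14.1 and 19.4% of the cells in NdpKO and in 22.5 and 11.1% in NdpWT, against 0.715 to 1.77% of fibroblast barcodes. Cells without any UMI of Pax2, Gad1, Gad2, Slc32a1, Eomes or Lmx1a made up 76.6 and 79.3% of the NdpKO and 73.8 and 88.3% of the NdpWT cells. Doublets were scored with Scrublet, whose automatic limit marked 3 barcodes in NdpKO replicate 1 and so had not worked there. At an expected rate of 0.8% per 1000 barcodes, the highest-scoring barcodes included 2 and 11 of the newly postmitotic cells in NdpKO and 12 and 28 in NdpWT, and these cells were kept.

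The first comparison placed the newly postmitotic cells against the non-cycling progenitors of the same library. Genes of the neuronal cytoskeleton, of synapses, of ion channels and of neuronal splicing were higher in the newly postmitotic cells, and DNA replication and Hedgehog genes were lower. Of 10003 genes tested, 3465 passed (34.6%), 1794 higher (17.9%) and 1671 lower (16.7%). The test was edgeR's quasi-likelihood test on summed counts with the library as block, with Benjamini-Hochberg adjusted p under 0.05, and the median log2 difference over all genes was -0.0107. The genes below were not used by the rule, but they change in development together with those that were.

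The switch in transcription factors was partial. Nhlh1 (chromosome 1, 172052292 to 172057573, minus strand, GRCm38) had 239 and 238 CPM in newly postmitotic cells of NdpKO and 257 and 234 of NdpWT, against 45.6 and 61.4 in progenitors of NdpKO and 64.2 and 73.7 of NdpWT. All 4 libraries of the newly postmitotic cells lay above all 4 of the progenitors, a log2 difference of 1.89 ± 0.12 (SE, adjusted p = 1.4e-14). Nhlh2 was higher by 2.13 ± 0.14, and Sox11, a factor of immature neurons, by 1.57 ± 0.06. Neurod2, a relative of Neurod1 that acts later in neuronal maturation and whose promoter drives the transgene, had 93.8 and 85.0 CPM in newly postmitotic cells of NdpKO and 59.8 and 50.2 of NdpWT, against 0 and 4.38 in progenitors of NdpKO and 1.57 and 0.97 of NdpWT. Its log2 difference was 5.17 ± 0.35 (adjusted p = 9.2e-14). Hes6, a modulator of Notch signalling, was lower by 1.23 on the log2 scale, with 63.7 and 55.6 CPM in newly postmitotic cells of NdpKO and 49.3 and 50.5 of NdpWT, against 160 and 142 in progenitors of NdpKO and 125 and 99.9 of NdpWT. Of the 30 listed transcription factors tested, 13 rose, 7 fell and 10 did not pass, with a median log2 difference of 0.14.

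Cell cycle exit showed in part of its genes. Ccnd1, the D cyclin that Hedgehog signalling induces in progenitors, had 114 and 69.5 CPM in newly postmitotic cells of NdpKO and 69.8 and 88.7 of NdpWT, against 370 and 311 in progenitors of NdpKO and 294 and 366 of NdpWT. The groups did not overlap, and the log2 difference was -2.02 ± 0.09 (adjusted p = 9.0e-18). Ccnd2, the other D cyclin of this lineage, did not pass the test (log2 difference 0.39 ± 0.13, adjusted p = 0.057), with 1469 and 1291 CPM in newly postmitotic cells of NdpKO and 1263 and 1481 of NdpWT, against 762 and 1026 in progenitors of NdpKO and 1144 and 1251 of NdpWT. The CDK inhibitor Cdkn1b (p27) was higher by 0.74 ± 0.08 and Cdkn2d by 1.01 ± 0.19. Of the 20 listed genes of cell cycle exit, 6 rose and 9 fell. Those counts were 4 and 5 by DESeq2 and without NdpWT replicate 2, and 3 and 7 without NdpKO replicate 2.

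DNA replication genes had fallen but were not off. Of 20 listed G1/S and S phase genes, 13 fell and none rose, with a median log2 difference of -0.63. After thinning to 5000 UMIs, 17 of 20 fell, with a median of -1.11. Progenitors had a median depth of 15066 and 10303.5 UMIs in NdpKO and 11328.5 and 8711.5 in NdpWT. Mcm6, a subunit of the replicative helicase, was at 117 and 85.3 CPM in newly postmitotic cells of NdpKO and 86.4 and 82.4 of NdpWT, against 256 and 199 in progenitors of NdpKO and 193 and 214 of NdpWT (log2 difference -1.24 ± 0.10). Pcna, the polymerase clamp, was lower by 0.54 on the log2 scale. With every cell thinned to 2000 UMIs, 28.1 and 19.6% of newly postmitotic cells in NdpKO and 23.0 and 23.0% in NdpWT held 3 or more UMIs of this list. The range over libraries was 48.3 to 63.0% in progenitors, 5.39 to 6.39% in Grin2b-positive neurons and 6.93 to 8.68% in fibroblast barcodes. Of 13 G2 and M phase genes that could be tested, 1 rose (Ube2c) and none fell, and 1 rose and 4 fell of 6 after thinning to 5000 UMIs. Mki67, Top2a and Cenpf were part of the rule for all 3 states.

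The Hedgehog pathway was lower at several levels. Of 17 listed genes tested, 12 fell and 1 rose, with a median log2 difference of -0.79. The receptor Ptch1, which is also a transcriptional target, was lower by 0.79 on the log2 scale, the co-receptors Boc and Gas1 by 1.57 and 2.04, and the effectors Gli1 and Gli2 by 1.86 and 0.74. Gli1 was at 19.2 and 4.87 CPM in newly postmitotic cells of NdpKO and 8.47 and 9.02 of NdpWT, against 45.6 and 19.7 in progenitors of NdpKO and 37.6 and 34.0 of NdpWT. Sfrp1, a secreted Wnt modulator counted with this list, was at 298 and 322 CPM in newly postmitotic cells of NdpKO and 234 and 400 of NdpWT, against 1050 and 927 in progenitors of NdpKO and 773 and 1087 of NdpWT. Sufu, a negative regulator that restrains the Gli factors, was the gene that rose (0.70 ± 0.22). No gene of the list rose by DESeq2, after thinning to 5000 UMIs or without NdpKO replicate 2. Smo was at 49.3 and 52.4 CPM in newly postmitotic cells of NdpKO and 37.4 and 56.5 of NdpWT, against 77.6 and 72.3 in progenitors of NdpKO and 48.5 and 86.3 of NdpWT (-0.53 ± 0.15). The sources used here do not tell whether tags of the SmoA1 transgene were counted as Smo.

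The cytoskeleton list was higher in nearly all of its genes. Of 28 listed genes, all tested, 27 rose and 1 fell, with a median log2 difference of 2.29. Tubb3 was at 621 and 896 CPM in newly postmitotic cells of NdpKO and 1034 and 736 of NdpWT, against 18.3 and 46.0 in progenitors of NdpKO and 62.6 and 34.9 of NdpWT. The difference of 4.29 ± 0.11 log2 units (adjusted p = 2.3e-25) was far larger than the spread in either state. Stmn4, a tubulin-binding stathmin, rose by 5.25 ± 0.21, Stmn2 by 2.85 ± 0.07, the growth cone protein Gap43 by 2.59 ± 0.12, and the microtubule proteins Map1b and Mapt by 2.52 each. Tuba1b was the gene that fell (-0.22 ± 0.09). No gene of the list fell by DESeq2 or without NdpKO replicate 1, NdpKO replicate 2 or NdpWT replicate 2. Tuba1a and Tuba1b, and Tubb2a and Tubb2b, are close in sequence. How tags that match both copies were counted was not checked, so their separate values are uncertain.

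Synaptic and excitability genes were higher in cells in which no Grin2b transcript was detected than in progenitors. Of 27 listed synapse genes tested, 21 rose and none fell (median log2 difference 1.15). The vesicle GTPase Rab3a was at 234 and 292 CPM in newly postmitotic cells of NdpKO and 332 and 272 of NdpWT, against 18.3 and 28.5 in progenitors of NdpKO and 28.2 and 29.1 of NdpWT (3.38 ± 0.14). The vesicular glutamate transporter Slc17a6 was higher by 0.66 ± 0.14. Of 13 glutamate and GABA receptor genes tested, 9 rose and 3 fell. Among them the AMPA receptor subunit Gria2 rose by 1.15 ± 0.27, while Grin3a, an NMDA receptor subunit, fell by 2.28 on the log2 scale. Of 17 ion channel genes, 13 rose and 1 (Kcnd3) fell. The potassium channel gene Kcna1 was at 8.22 and 25.0 CPM in newly postmitotic cells of NdpKO and 17.8 and 13.8 of NdpWT, and had no UMI in progenitors of any library.

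Guidance and migration genes moved in both directions. The netrin receptor gene Unc5c, which mediates repulsion, was at 268 and 209 CPM in newly postmitotic cells of NdpKO and 190 and 141 of NdpWT, against 4.56 and 28.5 in progenitors of NdpKO and 20.3 and 17.5 of NdpWT (3.23 ± 0.18). Dcc, the attractive netrin receptor, was lower by 0.35 on the log2 scale. L1cam, an axonal adhesion molecule, rose by 4.94 ± 0.36 and Sema6a, a semaphorin known from granule cell migration, by 1.71 ± 0.11. Cxcr4, the chemokine receptor that holds progenitors at the pia through meningeal Cxcl12, fell by 2.48 on the log2 scale. It was at 12.3 and 4.17 CPM in newly postmitotic cells of NdpKO and 5.55 and 5.41 of NdpWT, against 73.0 and 13.2 in progenitors of NdpKO and 39.1 and 32.0 of NdpWT. Of 26 guidance genes tested, 10 rose and 8 fell, and of 24 radial migration genes, 10 rose and 5 fell. Dcx, a microtubule protein of migrating neurons, rose by 1.26 ± 0.09, the glial-guided migration gene Astn2 by 2.25 ± 0.38 and the polarity gene Pard6a by 1.51 ± 0.19. Ntrk3, the neurotrophin-3 receptor, fell by 2.45 on the log2 scale.

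Splicing regulators also switched. Of 20 listed RNA-binding genes, 15 rose and 1 fell, with a median log2 difference of 1.38. The gene that fell was Ptbp1, the splicing repressor of non-neural cells, at 62.3 and 43.3 CPM in newly postmitotic cells of NdpKO and 38.2 and 62.8 of NdpWT, against 119 and 132 in progenitors of NdpKO and 122 and 148 of NdpWT (-1.39 ± 0.13). Its neuronal paralogue Ptbp2 rose by 0.83 ± 0.13, Elavl4 by 2.59 ± 0.13, Celf4 by 2.89 ± 0.15 and Srrm4, the regulator of neuronal microexons, by 2.04 ± 0.12.

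Outside the lists, a rule on size named the 12 called genes with the largest difference in each direction at a mean of at least 50 CPM. Those higher in newly postmitotic cells, besides Stmn4, Tubb3, Rab3a and Unc5c, were Gm29521 (5.00), Tex14 (4.52), Myt1 (4.27), Chgb (3.57), Mllt11 (3.50), Samd12 (3.38), Ppm1h (3.26) and Scrt2 (3.18), given as log2 differences. Myt1 and Scrt2 are zinc finger factors of early neurons, and Chgb is a granin of secretory vesicles. Those lower, besides Ntrk3, Gas1 and Ccnd1, were Btbd11 (-2.91), Col18a1 (-2.54), Zfp36l1 (-2.31), Pcdh17 (-2.30), Opcml (-2.27), Gsg1l (-2.24), C1ql1 (-2.22), Cadm1 (-2.04) and Carnmt1 (-1.84). Carnmt1 passed with an adjusted p of 0.0192 and did not without NdpWT replicate 1 (0.0768).

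**Figure D1:**
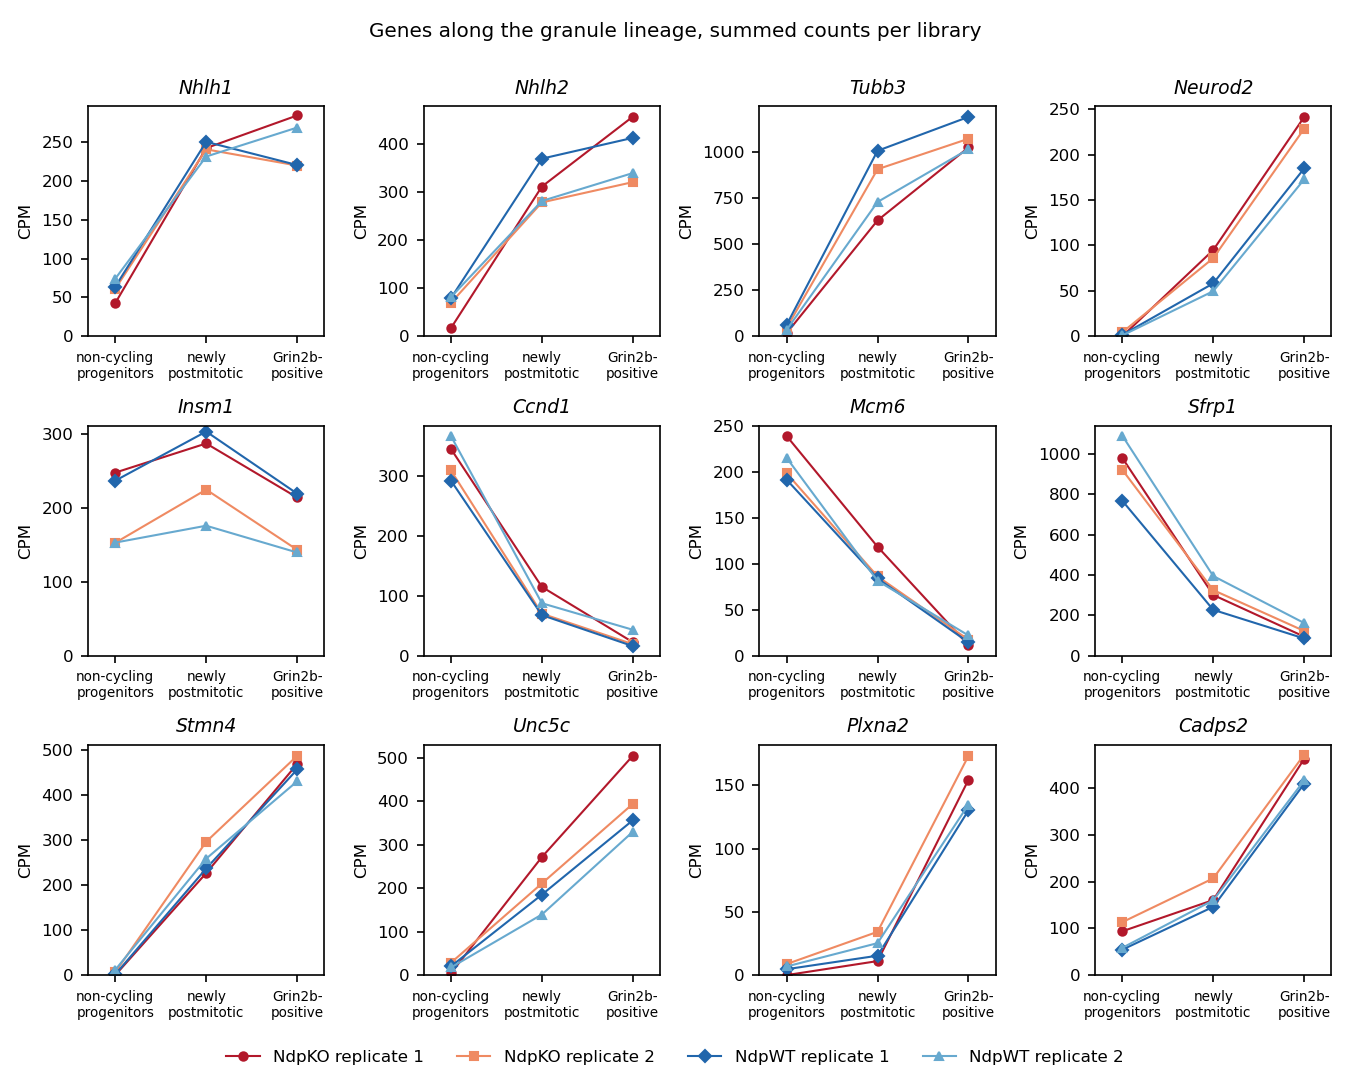
CPM (vertical axes, not TMM-scaled) of 12 genes in non-cycling progenitors, newly postmitotic neurons and Grin2b-positive neurons, left to right in developmental order, with 1 point for each of the 4 libraries. Tubb3 and Stmn4 climb at the first step, whereas Ccnd1 and Mcm6 drop at both steps.

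The second comparison set the same cells against the Grin2b-positive neurons of their library. The Grin2b-positive cells held more of nearly every synapse, channel and receptor gene, and the newly postmitotic cells held more of the replication and Hedgehog genes. Of 12299 genes tested, 5051 passed (41.1%), 2555 higher (20.8%) and 2496 lower (20.3%) in the newly postmitotic cells, with a median log2 difference over all genes of 0.0017. The newly postmitotic sums enter this comparison and the previous one alike, so the 2 sets of values are given side by side and not correlated.

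All 20 G1/S and S phase genes were higher in newly postmitotic cells (median log2 difference 1.70). Mcm6 was at 121 and 87.3 CPM in newly postmitotic cells of NdpKO and 89.4 and 85.0 of NdpWT, against 10.9 and 16.7 in Grin2b-positive cells of NdpKO and 14.4 and 21.4 of NdpWT. That is a log2 difference of 2.58 ± 0.18 (adjusted p = 1.1e-05). Ccnd1 was higher by 1.91 ± 0.22 and Ccnd2 by 1.50 ± 0.12. Ccnd2 was at 1522 and 1322 CPM in newly postmitotic cells of NdpKO and 1307 and 1529 of NdpWT, against 405 and 529 in Grin2b-positive cells of NdpKO and 454 and 628 of NdpWT. Ccnd1 passed the test at both steps, while Ccnd2 passed at this one and not against progenitors. Of the 18 Hedgehog genes tested, 11 were higher and 1 (Prkaca) was lower, with a median of 0.78, and 7 were higher and none lower of 15 when all cells were thinned to 5000 UMIs. Gli1 differed by 2.38 ± 0.33, Gli2 by 2.09 ± 0.15, Gas1 by 1.46 ± 0.14 and Ptch1 by 0.29 ± 0.06. In cells thinned to 2000 UMIs the share with 3 or more Hedgehog list UMIs was 63.0 to 86.1% in progenitors, 32.0 to 44.3% in newly postmitotic cells and 24.6 to 33.2% in Grin2b-positive neurons. Fibroblast barcodes held 38.7 to 43.8%, but they give no background for this list, as Sfrp1 had a UMI in 59.2 to 80.9% of them and Ptch1 in 41.4 to 53.8%.

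None of the 29 synapse genes tested was higher in newly postmitotic cells and 28 were lower (median -0.75). For receptors 14 of 16 were lower (median -0.92), and for ion channels 18 of 21 (median -0.82), with none higher. Grin1, the obligatory NMDA receptor subunit, was at 1.42 and 2.37 CPM in newly postmitotic cells of NdpKO and 3.62 and 4.34 of NdpWT, against 22.7 and 30.2 in Grin2b-positive cells of NdpKO and 25.0 and 19.4 of NdpWT (-3.00 ± 0.21, adjusted p = 1.6e-11). The share of newly postmitotic cells with a Grin1 UMI was 1.56 and 1.09% in NdpKO and 2.75 and 3.04% in NdpWT, near the 0.85 to 1.82% of fibroblast barcodes. Kcna1 was lower by 2.38 on the log2 scale, Kcnd2 by 1.66 and Gria2 by 0.62. In cells thinned to 2000 UMIs, 3 or more UMIs of the synapse list were held by 26.2 to 41.3% of progenitors, 81.3 to 82.4% of newly postmitotic cells and 95.1 to 96.3% of Grin2b-positive neurons, against 5.32 to 8.70% of fibroblast barcodes.

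The cytoskeleton list went on climbing by smaller steps, with 24 of 28 genes lower in newly postmitotic cells, 1 (Tuba1b) higher and a median of -0.47. Tubb3 was lower by 0.31 on the log2 scale, Stmn4 by 0.76, and Mapt, the tau gene, by 1.78. Some of the guidance genes had most of their difference at this step. Plxna2, a semaphorin receptor subunit, was at 11.4 and 34.6 CPM in newly postmitotic cells of NdpKO and 16.3 and 26.4 of NdpWT, against 148 and 168 in Grin2b-positive cells of NdpKO and 129 and 131 of NdpWT (-2.58 ± 0.15). The reelin receptor genes Vldlr and Lrp8 were lower by 2.15 and 1.87 on the log2 scale. Of 29 guidance genes 15 were lower and 6 higher, and of 25 radial migration genes 14 were lower and 5 higher. Cxcr4 was higher by 1.57 ± 0.29, Dcc by 0.88 ± 0.06 and the polarity gene Pard3 by 1.47 ± 0.11.

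Some listed genes were higher in newly postmitotic cells than in both neighbouring states. Such genes were not counted over all genes tested, and the newly postmitotic sums enter both comparisons. Insm1, a zinc finger factor of the transition out of division in neural progenitors, differed by 0.32 ± 0.09 from progenitors and by 0.57 ± 0.05 from Grin2b-positive neurons. Its level was 284 and 222 CPM in newly postmitotic cells of NdpKO and 311 and 178 of NdpWT, against 265 and 153 in progenitors of NdpKO and 238 and 152 of NdpWT, so the newly postmitotic level was higher within each library although the ranges over libraries overlap. Elavl2, an RNA-binding protein of early neurons, differed by 1.60 ± 0.08 from progenitors and 0.36 ± 0.05 from Grin2b-positive neurons. The antiproliferative gene Btg2 differed by 0.30 ± 0.12 and 0.39 ± 0.06, the RNA-binding protein gene Msi1 by 0.51 ± 0.15 and 0.66 ± 0.08, the insulin-like growth factor binding protein-like gene Igfbpl1 by 0.89 ± 0.07 and 0.43 ± 0.04, and the survival gene Bcl2l1 by 1.23 ± 0.17 and 0.30 ± 0.07, in the same order. Nhlh1 and Sox11, both higher than in progenitors, did not pass against Grin2b-positive neurons, with a difference of 0.08 ± 0.06 (adjusted p = 0.33) and 0.02 ± 0.04 (adjusted p = 0.78). Neurod2 went on rising into the Grin2b-positive state, where it stood at 231 and 221 CPM in NdpKO and 183 and 168 in NdpWT (-1.46 ± 0.06 for newly postmitotic cells).

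Of 30 listed transcription factors 5 were higher and 13 lower in newly postmitotic cells than in Grin2b-positive neurons, of 20 genes of cell cycle exit 10 were higher and 5 lower, and of 20 RNA-binding genes 4 were higher and 12 lower. Of 18 G2 and M phase genes 4 were higher and none lower (2 and 0 without NdpWT replicate 1).

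Markers of other cells were also tested between states. Against progenitors, brush cell genes (2 of 3 tested rose and 1 fell), macrophage genes (1 of 8 rose), oligodendrocyte genes (1 of 4 rose) and Purkinje cell genes (2 of 4 fell) gave the same number of calls when any 1 library was left out. The astroglia list had 3 of 5 genes lower, and 2 by DESeq2, after thinning and in all but 1 of the fits that left out a library. Of the mural list 3 of 4 rose, against 1 of 4 by DESeq2, after thinning or without NdpWT replicate 1, and 0 of 2 without NdpWT replicate 2. Of the interneuron list 3 of 4 rose, against 1 of 2 without NdpKO replicate 1 (with 1 falling) or without NdpWT replicate 1. In the endothelial list 2 of 9 fell, against 0 by DESeq2, without NdpKO replicate 2 or without NdpWT replicate 2, and 1 without NdpWT replicate 1. In the fibroblast list 1 of 9 rose, against 2 without NdpKO replicate 1 and 0 without NdpWT replicate 2.

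Against Grin2b-positive neurons, 1 of 8 interneuron, 1 of 9 fibroblast and 2 of 4 Purkinje genes were higher, and 2 of 4 brush cell and 2 of 4 Purkinje genes were lower. The interneuron count was 3 without NdpKO replicate 2 or without NdpWT replicate 2, and the brush cell count was 3 without NdpKO replicate 1. The red cell, macrophage, endothelial, mural, astroglia and oligodendrocyte lists had no called gene with all libraries in. Leaving out 1 library called 3 macrophage genes higher (without NdpWT replicate 1), 2 endothelial genes lower (without NdpWT replicate 2) and 2 red cell genes higher (without NdpKO replicate 2), and at most 1 gene of the mural, astroglia and oligodendrocyte lists. The red cell list had no call against progenitors in any of these fits. The part of other cells' RNA in the differences between states was not tested.

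By the same rule on size, the genes most above Grin2b-positive neurons, besides Mcm6, Ccnd1, Ccnd2 and Sfrp1, were C1ql1 (2.30), Hells (2.00), Draxin (1.85), Mfap4 (1.67), Igfbp5 (1.64), Selenom (1.58), Zfp36l1 (1.56) and Mdk (1.39). Hells is a chromatin remodeller of replicating cells, Draxin a secreted guidance protein and Mdk the growth factor midkine. Those most below were Sez6 (-2.71), Plxna2, Ube2ql1 (-2.49), Kcna1, Pcp4 (-2.31), Arpp21 (-2.22), Cadm2 (-2.21), Jph4 (-1.95), Irf2bpl (-1.93), Cdh10 (-1.91), Meg3 (-1.83) and 2900079G21Rik (-1.81). Sez6 is a membrane protein of dendrites, and Pcp4 and Arpp21 are calmodulin-associated proteins.

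**Figure D2:**
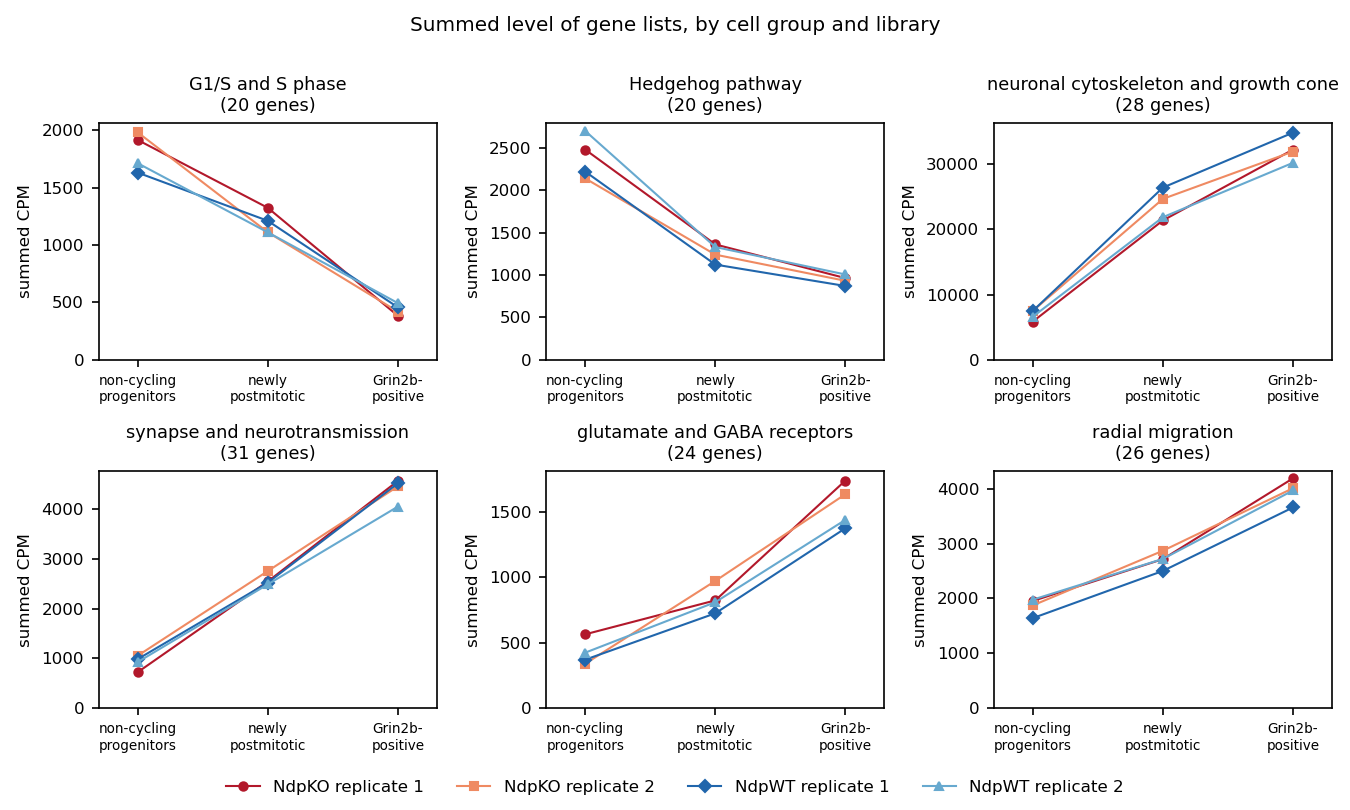
Summed CPM (vertical axes) of 6 gene lists in the 3 states, with 1 point per library. The cytoskeleton list sums to 5851 to 7505 in progenitors, 21389 to 26437 in newly postmitotic neurons and 30241 to 34876 in Grin2b-positive neurons, and the G1/S list to 1632 to 1982, 1111 to 1325 and 383 to 494 in the same order.

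The summed list levels put the newly postmitotic cells at different distances from their neighbours. For the synapse list the sums were 717 to 1049 CPM in progenitors, 2486 to 2754 in newly postmitotic cells and 4052 to 4570 in Grin2b-positive neurons. For the Hedgehog list they were 2140 to 2700, 1122 to 1361 and 870 to 1006 CPM, in the same order. Sfrp1, the secreted Wnt modulator counted with this list, gave 769 to 1092, 228 to 396 and 85.7 to 162 CPM of these sums. Much of the change in the Hedgehog sum was thus in this gene. For receptors the sums were 338 to 563, 724 to 973 and 1376 to 1742 CPM. The ranges of the 3 states did not overlap for any of these lists.

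Signalling, survival and stress lists moved in both directions. Of the norrin receptor and Wnt target list, 4 rose and 6 fell of 16 relative to progenitors, and 4 were higher and 5 lower of 20 relative to Grin2b-positive neurons. Axin2, a common Wnt target, differed by 0.95 ± 0.29 from progenitors and -0.70 ± 0.10 from Grin2b-positive neurons, and the Wnt effector Tcf7l2 by -1.72 ± 0.23 and 1.08 ± 0.19. The norrin receptor Fzd4 was at 5.53 and 2.77 CPM in NdpKO and 2.04 and 6.32 in NdpWT newly postmitotic cells. For apoptosis genes the counts were 4 rising and 3 falling of 16, and 4 higher and 1 lower of 17. For stress genes they were 4 and 4 of 19, and 2 and 5 of 22, and for hypoxia and glycolysis genes 3 and 7 of 21, and 7 and 8 of 23. In the first comparison the hypoxia counts were 2 and 4 by DESeq2. For the Notch, BMP and IGF list the counts were 6 and 4 of 18, and 3 and 3 of 20, and 3 and 3 of 18 in the first comparison by DESeq2. For interferon response genes they were 0 and 1 of 9, and 3 and 0 of 12. Of 13 mitochondrially encoded genes, 5 fell relative to progenitors and 13 were higher relative to Grin2b-positive neurons. That first count was 2 without NdpKO replicate 1, 2 without NdpWT replicate 2, 1 by DESeq2 and 11 after thinning, and the second was 4 after thinning.

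**Figure D3:**
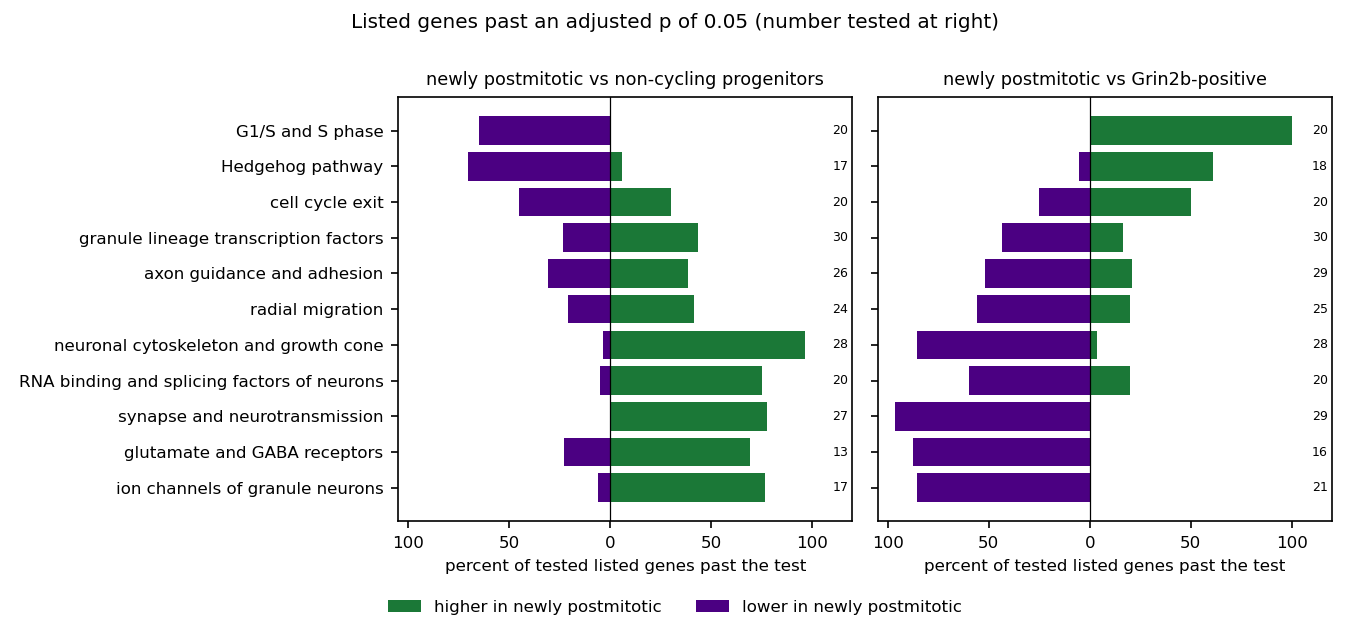
Percent of the tested genes of each list that passed the test as higher (to the right) or lower (to the left) in newly postmitotic neurons, against progenitors in the left panel and against Grin2b-positive neurons in the right panel, with the number tested at the right edge. The cytoskeleton, synapse, channel and receptor lists point right against progenitors and left against Grin2b-positive neurons, and the G1/S and Hedgehog lists point the opposite way.

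The comparison of genotypes asked whether loss of norrin changed the newly postmitotic cells. No gene passed: 0 of 11277 tested (0%) by edgeR's quasi-likelihood test and 0 by DESeq2, with 222 genes (1.97%) at an unadjusted p under 0.05 by edgeR. The lowest adjusted p was 1.00. With the replicate number as block, 8 of the genes named by rule below passed, but no label ties these numbers to litters. Leaving out each library in turn gave 0 to 4 genes, and dropping the filter on low counts gave 13. With 4 libraries, the values of 3212 genes (28.5%) were separated by genotype without overlap, 1658 higher (14.7%) and 1554 lower (13.8%) in NdpKO. A random order of 2 against 2 libraries separates them for a share of 0.33 of genes. Ndp itself had 2 and 3 UMIs in NdpKO and 8 and 7 in NdpWT newly postmitotic cells (1.38 and 0.693 CPM in NdpKO, 2.34 and 2.11 in NdpWT). These counts are too few to test, and as no label tells which exons were deleted, a 3' tag may lie outside them and checks the genotype only in part.

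The 10 genes with the lowest p in each direction are named by rule, called or not, and none passed the adjustment (adjusted p = 1.00 for each). Mfap4, a microfibril-associated protein gene, had 509 and 457 CPM in NdpKO and 278 and 276 in NdpWT cells, a log2 difference of 0.80 ± 0.15 (unadjusted p = 0.00033). Neurod2 (chromosome 11, 98325415 to 98329648, minus strand) had 94.7 and 84.7 CPM in NdpKO and 59.8 and 50.2 in NdpWT, a difference of 0.69 ± 0.17 (unadjusted p = 0.002). Both NdpKO libraries lay above both NdpWT libraries for these genes, as for 14.7% of all genes tested. Ostf1 had 67.8 and 56.8 CPM in NdpKO and 27.7 and 39.4 in NdpWT. The imprinted long noncoding RNAs Rian and Meg3 had 15.9 and 14.3 CPM (Rian) and 62.9 and 94.0 (Meg3) in NdpKO, against 6.71 and 6.32 (Rian) and 53.4 and 44.5 (Meg3) in NdpWT. The others higher in NdpKO were Lhfp, Slc15a2, Arrdc3, Etaa1os and Sfrp2, with log2 differences of 0.79 to 1.74. Etaa1os is named as an antisense transcript, and the sources used here do not tell whether counting used strand.

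Sowaha had 9.68 and 8.08 CPM in NdpKO and 21.9 and 32.8 in NdpWT (-1.66 ± 0.30, unadjusted p = 0.00019). Ube2c (chromosome 2, 164769898 to 164778822, plus strand), a ubiquitin-conjugating enzyme of mitotic exit, had 19.4 and 25.6 CPM in NdpKO and 43.8 and 47.5 in NdpWT (-0.97 ± 0.20). Id1, an inhibitor of differentiation induced by BMP signals, had 31.8 and 41.1 CPM in NdpKO and 54.6 and 64.7 in NdpWT (-0.67). The NdpKO libraries lay below the NdpWT libraries for each of these, as for 13.8% of all genes tested. Zfp300 had 1 and 1 UMIs in NdpKO and 16 and 11 in NdpWT, counts too low for a fold. The others lower in NdpKO were Tbata, S100a6, Bcas1, Rnf208, Doc2b and St6galnac4, with log2 differences of -0.70 to -1.88. Bcas1 marks oligodendrocytes: all 4 genes of the oligodendrocyte list that could be tested were lower in NdpKO, none past the adjustment, and the whole list of 10 summed to 93.6 and 125 CPM in NdpKO and 195 and 175 in NdpWT. The part of free oligodendrocyte RNA in this was not tested. Of 7 interneuron markers tested, 6 were higher in NdpKO, all short of the adjustment. For none of the 7 did both NdpKO libraries lie outside both NdpWT libraries. The whole interneuron list of 10 summed to 587 and 585 CPM in NdpKO and 563 and 573 in NdpWT.

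**Figure D4:**
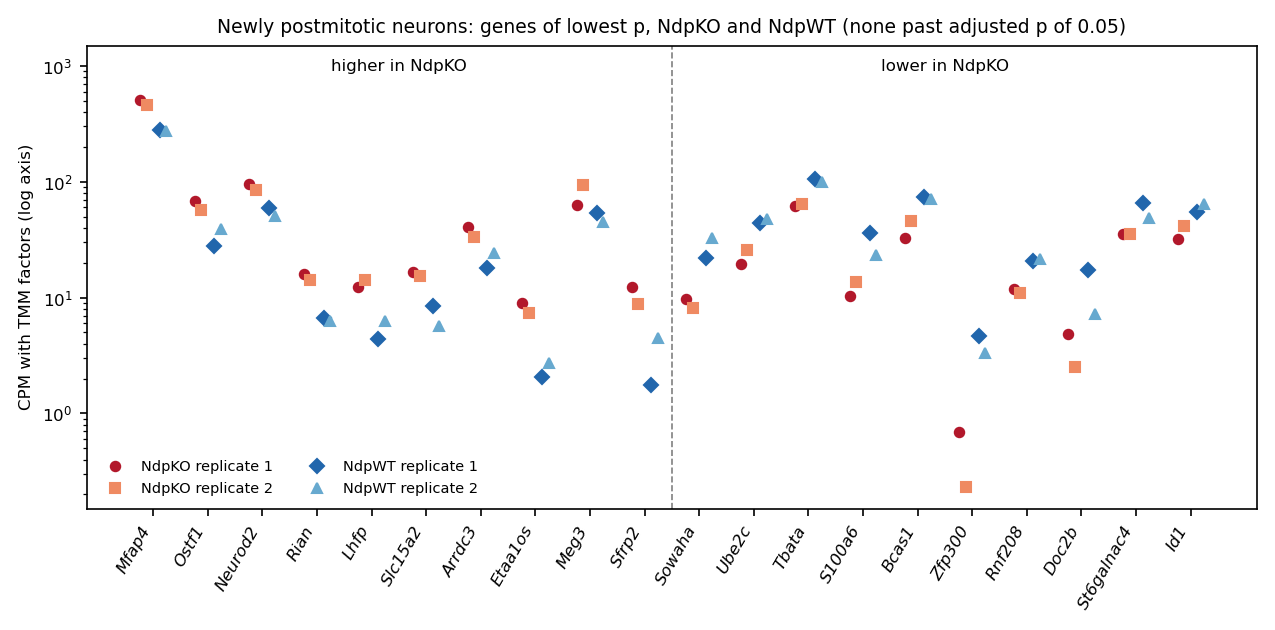
CPM on a log axis of the 20 genes named by rule, in newly postmitotic cells of the 2 NdpKO libraries (left point pair of each gene) and the 2 NdpWT libraries (right point pair). The NdpKO points lie above the NdpWT points for the 10 genes on the left and below them for the 10 on the right, which is how the genes were chosen, and none passed the adjustment.

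By list, no gene was called between genotypes. The listed transcription factors had a median log2 difference of 0.03 (19 of 32 higher in NdpKO), G1/S genes 0.11 (12 of 20), Hedgehog genes 0.11 (12 of 17), synapse genes 0.09 (20 of 28) and the norrin and Wnt list -0.05 (8 of 19), beside a median of 0.0046 over all genes. Axon guidance genes had a median of 0.29, with 23 of 27 higher in NdpKO, and Unc5c as an example at 271 and 208 CPM in NdpKO and 190 and 141 in NdpWT (unadjusted p = 0.021). G2 and M phase genes had a median of -0.39, with 14 of 16 lower in NdpKO. Cytoskeleton genes had a median of -0.12, with 21 of 28 lower. Smo had 49.8 and 52.2 CPM in NdpKO and 37.4 and 56.5 in NdpWT, and the NdpKO values lay within the NdpWT range. Axin2 had 23.5 and 27.2 CPM in NdpKO and 29.8 and 20.5 in NdpWT, again inside that range.

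The genotype difference was also set against that of the neighbouring states, by a test of the interaction of state and genotype. Relative to Grin2b-positive neurons 1 of 12299 genes passed (0.00813%), Pf4, and relative to progenitors 3 of 10003 (0.03%), Bpgm and Tent5c among them. With cells thinned to 5000 UMIs both counts were 0 and the Pf4 difference turned to -0.44, and leaving out 1 library gave 11 to 42 genes with Grin2b-positive neurons and 8 to 35 with progenitors. Neurod2 had 231 and 221 CPM in NdpKO and 183 and 168 in NdpWT Grin2b-positive neurons, and its difference between states was 0.32 ± 0.13 (adjusted p = 1.00). Ube2c had 13.5 and 20.5 CPM in NdpKO and 31.7 and 31.6 in NdpWT Grin2b-positive neurons, and Tbata had 29.7 and 31.8 in NdpKO and 45.3 and 45.8 in NdpWT. Mfap4 had 121 and 184 CPM in NdpKO and 75.5 and 111 in NdpWT Grin2b-positive neurons. Id1 had 39.3 and 39.4 CPM in NdpKO and 28.7 and 37.2 in NdpWT Grin2b-positive neurons, and its interaction of -0.93 ± 0.18 did not pass (adjusted p = 0.135). Grin2b-positive neurons come from the same 4 libraries and are not a further set of replicates.

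The share of newly postmitotic cells did not separate the genotypes. They made up 5.69% (exact 95% binomial interval 4.77 to 6.73) and 10.4% (9.55 to 11.2) of the barcodes past the filter in NdpKO replicates 1 and 2, and 8.35% (7.58 to 9.17) and 7.73% (7.07 to 8.44) in NdpWT replicates 1 and 2. The means were 8.02 ± 3.30% in NdpKO and 8.04 ± 0.435% in NdpWT (SD, n = 2 libraries each), a difference of -0.0187 percentage points (exact two-sided permutation test, p = 1). Among newly postmitotic and Grin2b-positive neurons together, the newly postmitotic share was 25.8% (22.0 to 29.8) and 34.7% (32.3 to 37.1) in NdpKO and 25.4% (23.3 to 27.7) and 50.6% (47.3 to 53.9) in NdpWT. The means were 30.2 ± 6.31% in NdpKO and 38.0 ± 17.8% in NdpWT, a difference of -7.80 points (exact two-sided permutation test, p = 1). That difference rests on NdpWT replicate 2, and was 4.79 points without it. For the first share, leaving out 1 library moved the difference between -2.35 points (without NdpKO replicate 2) and 2.31 points (without NdpKO replicate 1). With cells thinned to 5000 UMIs the first share was 10.9 ± 3.23% in NdpKO and 10.3 ± 2.01% in NdpWT, and the second 36.5% in NdpKO and 43.0% in NdpWT. With 2 libraries of each genotype the smallest p the exact test can give is 0.33, so it could not have passed 0.05. The intervals cover counting error only.

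**Figure D5:**
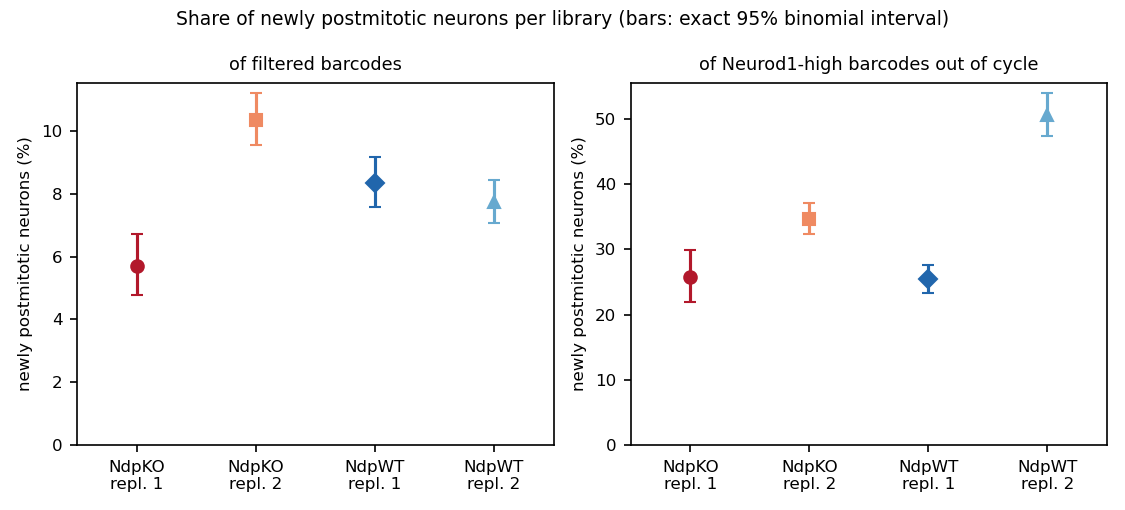
Newly postmitotic neurons as a percent of all barcodes past the filter (left) and of newly postmitotic plus Grin2b-positive neurons (right), 1 point per library with its exact 95% binomial interval, NdpKO left of NdpWT. In both panels the NdpKO and NdpWT points overlap in range, and NdpWT replicate 2 stands highest in the right panel at 50.6%.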

How the data were processed

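Single-cell libraries were made with the 10x 3' v3.1 chemistry, per the labels' protocols. The authors deposited UMI counts per gene and barcode from Cell Ranger 6.1.2 on mm10, per the submitters' processing notes. Here the counts of newly postmitotic cells, progenitors and Grin2b-positive neurons were summed per library, so that a library was the replicate. Sums were tested with edgeR 4.0.16 (R 4.3.3), with TMM scaling, a minimum count of 10, the robust quasi-likelihood test and Benjamini-Hochberg adjusted p under 0.05. Comparisons of states had the library as block. DESeq2 1.42.0 was an alternative. The genes of the selection rule, and Atoh1 and Barhl1 in comparisons of states, were not tested. The scripts were tested on simulated data. The cells and the 29 gene lists were chosen with earlier results of these data known. Any listed gene may be named. Otherwise the text names the 10 genes of lowest p in each direction between genotypes, and the 12 called genes with the largest difference in each direction, at a mean of at least 50 CPM, between states. Depth was 114363848 to 125981161 UMIs per library. Other settings tried were no filter, thinning to 5000 UMIs, leaving out each library, and a replicate block. Promoter sequences came from RefSeq and gene positions from GENCODE M21, which matched 32235 of 32285 feature IDs. A few genes are not reported here by name.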

Additional observations from a re-analysis of the deposited data

Results flagged for a closer look

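The genotype difference of Pf4, Bpgm and Tent5c differed between newly postmitotic cells and a neighbouring state, by edgeR's test of the interaction. For Pf4, a chemokine gene of platelets and macrophages, the NdpKO minus NdpWT log2 difference was 1.78 ± 0.24 (SE) larger in newly postmitotic cells than in Grin2b-positive neurons (adjusted p = 0.0031). Pf4 had 34.8 and 32.0 CPM in NdpKO and 30.8 and 22.6 in NdpWT newly postmitotic cells, and 17.7 and 9.46 in NdpKO and 41.3 and 26.4 in NdpWT Grin2b-positive neurons. The list of 10 macrophage genes, of which Pf4 is one, summed to 72.8 and 51.9 CPM in NdpKO and 199 and 121 in NdpWT Grin2b-positive neurons, and to 93.6 and 136 in NdpKO and 116 and 108 in NdpWT newly postmitotic cells, and its part in the Pf4 difference was not tested. With cells thinned to 5000 UMIs the Pf4 difference was -0.44 and no gene passed in either interaction. Bpgm, an enzyme of red cell metabolism, had an interaction of -2.84 ± 0.34 with progenitors (adjusted p = 0.00013). It had 71.2 and 54.2 CPM in NdpKO and 69.2 and 120 in NdpWT newly postmitotic cells, and 201 and 78.9 in NdpKO and 23.5 and 30.1 in NdpWT progenitors. Tent5c had an interaction of -3.19 ± 0.59 (adjusted p = 0.049), with 11.0 and 12.7 CPM in NdpKO and 14.6 and 43.3 in NdpWT newly postmitotic cells, and 54.8 and 24.1 in NdpKO and 7.83 and 10.7 in NdpWT progenitors. Haemoglobin transcripts made up 6.89% of the progenitor UMIs of NdpKO replicate 1, whose 19 progenitors are the fewest, and their part in these differences was not tested.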

How the results depend on the processing

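Between genotypes, the count of 0 genes became 13 without the filter on low counts (4 higher and 9 lower in NdpKO) and 0 to 4 when a library was left out (0 without NdpKO replicate 1, 4 without NdpKO replicate 2, 1 without NdpWT replicate 1 and 4 without NdpWT replicate 2). With a replicate block 24 genes passed (14 higher and 10 lower), among them Mfap4, Ostf1, Neurod2, Sowaha, Ube2c, Tbata, S100a6 and Bcas1. The labels do not tie replicate numbers to litters, so the numbers were not treated as pairs. Deviations of same-numbered libraries correlated at 0.0884 and those of the other pairing at -0.0884. With 2 libraries of each genotype the 2 pairings mirror each other, so these values cannot tell whether the numbers mark pairs. Against progenitors DESeq2 called 2274 genes, and leaving out a library gave 2509 to 3515. Against Grin2b-positive neurons DESeq2 called 3113 and a fit with no library block 2933, and leaving out a library gave 4051 to 4752. All 24 named genes kept their direction in each stage comparison under every setting, and only Carnmt1 lost its call. The interaction count with Grin2b-positive neurons was 16 without the filter, 11 to 42 with a library left out (27 without NdpKO replicate 1, 42 without NdpKO replicate 2, 16 without NdpWT replicate 1, 11 without NdpWT replicate 2) and 0 with cells thinned to 5000 UMIs, where Pf4 reversed to -0.44. The count with progenitors was 8 without the filter, 8 to 35 with a library left out (23, 35, 15 and 8, in the same order) and 0 after thinning. There Bpgm was -0.95 and Tent5c -3.40, and Tent5c also missed the threshold without NdpKO replicate 1 (adjusted p = 0.0536) and without NdpWT replicate 2 (0.998). The causes were not tested. At 2 libraries a genotype, and 128 cells in NdpKO replicate 1, low genes limit the precision.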
